A study of Mus musculus with 4 samples.

Results

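The genes described here are 9 members of the heme biosynthesis pathway, out of 55401 annotated genes, in bone marrow of obese mice with and without exercise. They were taken by gene symbol, and each gene's value is the sum of FPKM (fragments per kilobase of transcript, scaled to the size of the library) over its transcripts. Male wild-type C57/B6 mice were placed on a high-fat diet (HFD) at 8 weeks of age. The sedentary obese group is named Ob (2 libraries), and the obese group that also ran on a treadmill at moderate intensity for 12 weeks is named Ob + Exe (2 libraries). All 4 libraries therefore come from male HFD-fed mice, and no lean or chow-fed group was analysed here. The marrow came from the tibia, collected by centrifugation per the study's methods, and polyadenylated RNA was sequenced without strand information. The labels number the libraries within each group but do not say whether each is 1 animal or a pool, so p-values measure only the spread between these libraries.

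Heme is the iron-holding ring that lets hemoglobin carry oxygen, and in marrow most of it is made by erythroblasts, the nucleated precursors of red cells. Synthesis starts inside the mitochondrion, where glycine and succinyl-CoA are joined into 5-aminolevulinate, continues through ring closure in the cytosol, and ends in the mitochondrion, where iron is inserted. The erythroid form of the first enzyme sets the rate in these cells and is controlled by iron at the level of translation.

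The labels also carry the entries mesenchymal stem cells and fibroblast, which the RNA as a whole did not match. Hba-a1, an alpha globin gene, stood at 20150 to 24040 FPKM over the 4 libraries, whereas Col1a1, the main fibroblast collagen, stood at 1.17 to 3.14 FPKM. Alas2, the erythroid first enzyme, was 246 to 674 times as abundant as Col1a1 per length. Of the 10 stroma and bone markers described below, Cxcl12 was the highest, at 88.8 to 143 FPKM, and the others reached at most 8.74 FPKM. The libraries held 44310505 to 53038186 read equivalents (coverage times length over the read length of 150 bases), and 6772 to 106500 of these fell on each member in each library, so that counting error was small beside the differences between libraries.

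None of the 9 genes differed between Ob and Ob + Exe beyond the spread between replicates. A gene was called where its log2 fold change in limma lay past 1 in either direction with an unadjusted p under 0.05, which are the study's thresholds. By this rule 0 of 9 members were called, 0 of 9 had an unadjusted p under 0.05, beside 3.74% called (1.0% higher and 2.74% lower in Ob + Exe) and 5.05% with such a p among all 18596 genes tested. The log2 fold changes ran from -0.11 to 0.21, with 6 genes higher and 3 lower in Ob + Exe, a median of 0.12 and a median of -0.019 over all genes tested. The values of the groups overlapped for every member, so that 0 of 9 were separated, while 32.6% of all genes tested were. Benjamini-Hochberg adjusted p-values from limma lay between 0.970 and 0.994 for the members. Among all genes, 0 passed an adjusted p of 0.05 in this limma fit and 0 did with limma voom, against 940 by the unadjusted p. With protein-coding transcripts only, 17 genes did so in limma, 0 of them members. The members stayed at 0 of 9 called in each of 17 alternative settings, voom included, and 8 of the 9 changed sign in at least 1 of them. In marrow as a whole, a difference in the number of erythroblasts and one in RNA per erythroblast could not be told apart.

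Changes as small as those of the members were also seen in other genes of like level. The bound used here was taken from the members, so all 9 meet it by definition. Of 760 genes whose mean FPKM lay within the range of the members, 58.0% changed by no more than the member with the greatest change did, and 0.658% of these genes were called. The 95% intervals of the log2 fold change stayed within 1 of 0 for 8 of the 9 members, and only that of Cpox reached past it in both directions. With 2 libraries a group, true differences inside these intervals remain possible, and the call rule asks for a log2 fold change past 1.

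**Figure D1:**
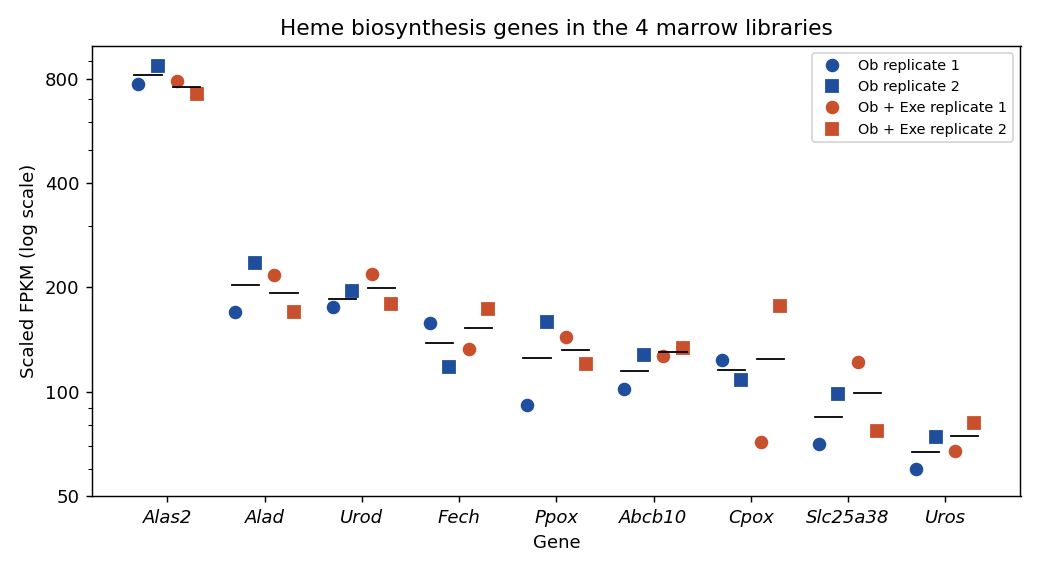
Scaled FPKM (log axis) of the 9 genes in each library, ordered by mean level, with circles for replicate 1, squares for replicate 2, blue for Ob, orange for Ob + Exe and a bar at each group mean. Alas2 lies above all other members in every library, the groups overlap for each gene, and Cpox has the widest gap between the Ob + Exe libraries (71.9 and 177 FPKM).

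Before synthesis can begin, glycine has to enter the mitochondrion. Slc25a38, the inner-membrane carrier linked to glycine import for heme (chr9:120110374-120124504, plus strand, GRCm38), was measured at 70.8 and 98.9 FPKM in Ob, against 122 and 77.1 FPKM in Ob + Exe. The highest value and the second lowest both came from exercised mice. Its log2 fold change was 0.21 (SE 0.305, 95% interval -0.54 to 0.97), the greatest among the members.

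Alas2, 5-aminolevulinate synthase of the erythroid lineage (chrX:150547375-150570638, plus strand), was measured at 771 and 870 FPKM in Ob, against 790 and 725 FPKM in Ob + Exe. The means were 820 ± 70.2 and 758 ± 46.3 FPKM (SD, n = 2 each), and one exercised library lay between the sedentary ones. The log2 fold change was -0.11 (SE 0.244, 95% interval -0.71 to 0.49), which corresponds to a fold of 0.924. Abcb10, a mitochondrial inner-membrane transporter needed for normal heme formation in red cell precursors (chr8:123952459-123983122, minus strand), had the closest exercised libraries, at 127 and 133 FPKM, beside 102 and 128 FPKM in Ob. Its log2 fold change was 0.19 (SE 0.213, 95% interval -0.34 to 0.71), and it ranged from 0.026 to 0.35 with 1 library left out.

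The cytosolic enzymes showed the same overlap. Alad, which joins a pair of 5-aminolevulinate molecules into porphobilinogen (chr4:62509169-62519918, minus strand), was at 170 and 235 FPKM in Ob, against 217 and 170 FPKM in Ob + Exe. The lowest values of both groups were equal to 3 digits, and the log2 fold change was -0.061 (SE 0.260, 95% interval -0.70 to 0.58). Uros, which closes the linear tetrapyrrole into uroporphyrinogen III (chr7:133686243-133710072, minus strand), was at 59.7 and 74.3 FPKM in Ob, against 67.6 and 81.3 FPKM in Ob + Exe. These values alternated between the groups, with a log2 fold change of 0.15 (SE 0.223, 95% interval -0.40 to 0.70). Urod, which removes carboxyl groups to give coproporphyrinogen III (chr4:116989965-116994413, minus strand), was at 176 and 195 FPKM in Ob, against 219 and 179 FPKM in Ob + Exe. One exercised library stood above both sedentary ones and the other between them (log2 fold change 0.097, SE 0.218, 95% interval -0.44 to 0.63).

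The late enzymes varied more between replicates than between groups. Cpox, coproporphyrinogen oxidase (chr16:58670292-58717636, plus strand), was at 124 and 108 FPKM in Ob, against 71.9 and 177 FPKM in Ob + Exe. The exercised libraries thus held both the lowest and the highest value, a 2.47-fold gap, and the log2 fold change of -0.035 had the widest error of the members (SE 0.430, 95% interval -1.10 to 1.03). Leaving out Ob + Exe replicate 1 gave a log2 fold change of 0.62, and leaving out Ob + Exe replicate 2 gave -0.69. Ppox, which oxidises protoporphyrinogen to protoporphyrin IX (chr1:171275990-171281186, minus strand), was at 91.9 and 159 FPKM in Ob, against 144 and 120 FPKM in Ob + Exe. Here the sedentary libraries bracketed the exercised ones with a 1.73-fold gap, and the log2 fold change was 0.12 (SE 0.310, 95% interval -0.64 to 0.89). Fech, ferrochelatase, which inserts iron into protoporphyrin IX (chr18:64452914-64490251, minus strand), was at 158 and 118 FPKM in Ob, against 133 and 173 FPKM in Ob + Exe. Its values alternated between the groups, with a log2 fold change of 0.15 (SE 0.254, 95% interval -0.47 to 0.78).

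**Figure D2:**
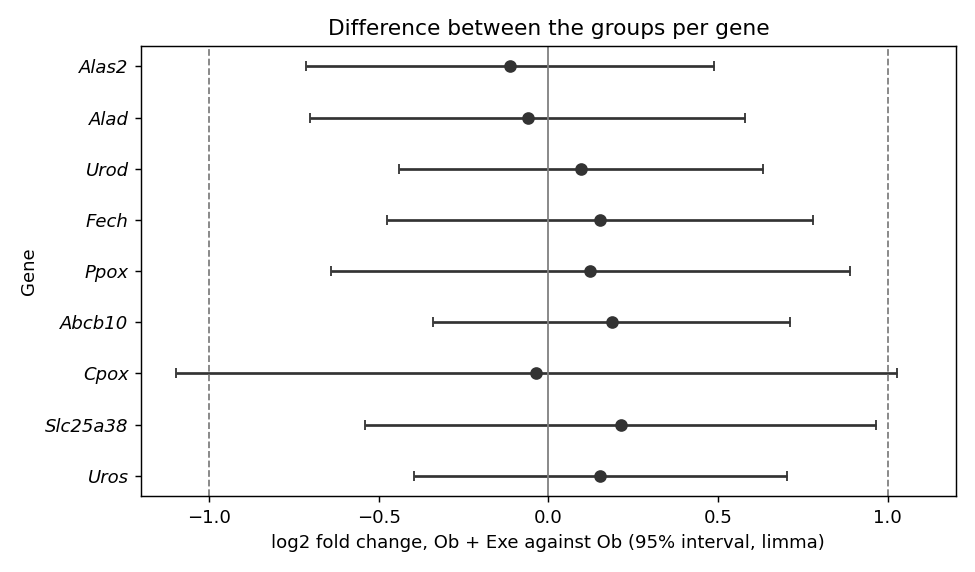
Log2 fold change of Ob + Exe against Ob for each gene (points) with its 95% interval from limma (bars), genes ordered from the highest mean FPKM at the top, and dashed lines at 1 and -1. Each interval contains 0, and only that of Cpox (-1.10 to 1.03) reaches past both dashed lines.

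Although the groups did not separate, the order of the members was clear at its top. Alas2 had a mean of 789 ± 60.6 FPKM over the 4 libraries (SD), and its lowest library, at 725 FPKM, lay far above the highest value of the next gene, Alad, at 235 FPKM. Alad (198 ± 33.2 FPKM) and Urod (193 ± 19.9 FPKM) overlapped each other. Urod lay just above Fech (146 ± 24.8 FPKM) with no overlap of the ranges, from 176 FPKM upward against up to 173 FPKM. This was no clean break, since Alad, from 170 FPKM upward, overlapped Fech, and Cpox, at up to 177 FPKM, overlapped Urod. Below Fech came Ppox (129 ± 29.4 FPKM), Abcb10 (122 ± 13.9 FPKM), Cpox (120 ± 43.8 FPKM), Slc25a38 (92.2 ± 23.2 FPKM) and Uros (70.7 ± 9.23 FPKM), and the range of each of these overlapped that of its neighbours. Alas2 made up 44.7% and 43.8% of the members' summed FPKM in Ob, against 41.8% and 39.5% in Ob + Exe. Its ratio to Alas1, the form of the first enzyme found in all tissues, was 14.3 and 29.2 in Ob, against 14.4 and 12.1 in Ob + Exe. In Ob replicate 2, where this ratio stood apart, Alas1 was at 29.8 FPKM, its lowest value, and Alas2 at its highest.

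The differences between the exercised libraries moved with base composition. Over 5760 genes with a mean of 10 FPKM or more, the log2 difference of Ob + Exe replicate 1 minus replicate 2 correlated with the GC content of the most abundant transcript (Pearson's r = 0.331 across genes, which are not independent replicates), and the same correlation for the Ob libraries was -0.107. With these genes in 10 bins of GC content, median differences ran from -0.45 in the poorest bin to 0.22 in the second richest. Fech (46.0% GC) and Cpox (47.7% GC), the members poorest in GC, were lower in Ob + Exe replicate 1 than in replicate 2, by -0.38 and -1.30. Slc25a38 (55.9% GC), Ppox (56.6% GC) and Alad (58.3% GC), the members richest in GC, were higher in replicate 1, by 0.66, 0.26 and 0.35. In the bin of like GC content to Cpox the median difference was -0.11. A GC correction, added after these values were seen, left 0 of 9 members called, and the part of base composition in the members' values was not tested further.

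**Figure D3:**
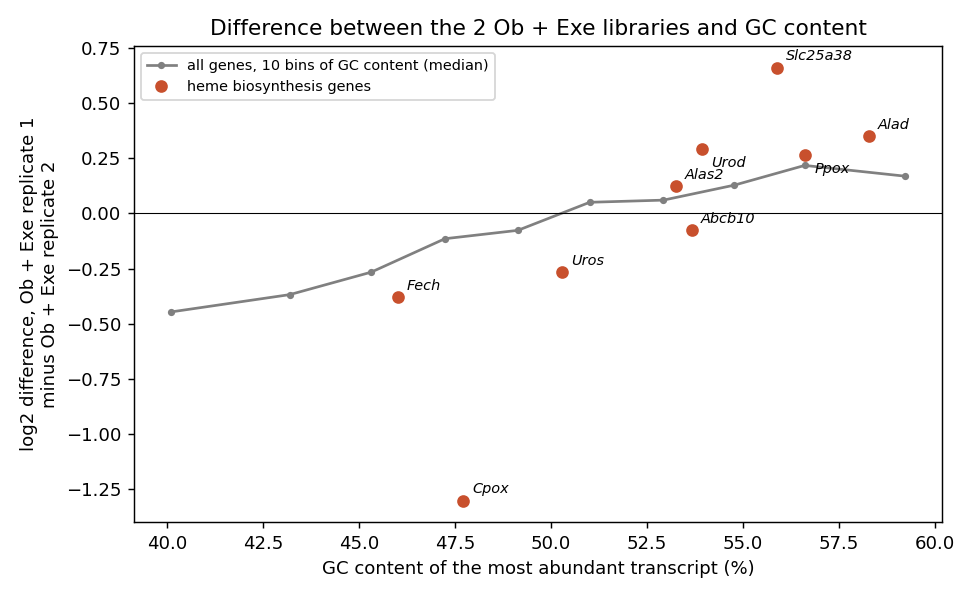
Log2 difference between the Ob + Exe libraries (replicate 1 minus replicate 2) against the GC content of the most abundant transcript (%), for the 9 genes (orange points) and as medians of 10 bins of 5760 genes (grey line). The line climbs from -0.45 to 0.22 and ends at 0.17, and Cpox lies at -1.30.

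Alas2 had 2 abundant coding transcripts, and their sequences show what separates them. Both have 11 exons. The long one (ENSMUST00000066337.12, 2037 bases) starts exon 3 with 45 coding bases that the short one (ENSMUST00000112715.1, 1892 bases) lacks, at chrX:150552959-150553003 on the plus strand of GRCm38. These bases amount to 15 codons in frame, and the long transcript also has 84 more bases at the 5′ end and 16 more at the 3′ end. The stretch around the junction from exon 2 is shown for both, from the GENCODE transcripts, with the additional bases in capitals and 20 bases on either side.
Alas2 long transcript: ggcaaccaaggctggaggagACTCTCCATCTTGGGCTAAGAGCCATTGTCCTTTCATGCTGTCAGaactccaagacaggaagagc
Alas2 short transcript: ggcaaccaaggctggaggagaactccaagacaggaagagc
Both transcripts hold the bulged C, the paired stem above it and the loop of the iron-responsive element of exon 1. To this hairpin in the 5′ UTR iron regulatory proteins bind, and through it iron controls translation of Alas2. The stretch begins close to the 5′ end of the short transcript, and pairing below the bulged C was not searched. The stretch is shown because it ties this gene to iron, with the bulged C and the loop in capitals (chrX:150547461-150547483, plus strand).
Alas2 iron-responsive element: gttCgtcctCAGTGCagggcaac
A search for this kind of hairpin found a match in the first 200 bases of 49 of 58291 protein-coding transcripts (0.0841%), and Alas2 was the only gene among the members and the other heme genes described below to hold one. A match of letters and pairing is no measurement of binding.

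The long Alas2 transcript took 48.8% and 40.4% of the gene's FPKM in Ob, against 83.3% and 63.6% in Ob + Exe. The short transcript took 45.1% and 51.4% in Ob, against 9.95% and 31.1% in Ob + Exe. Thus the groups did not overlap for either transcript, while the sum of the gene stayed level. In a limma fit over 46692 transcripts, added after these shares were seen, the short transcript was lower in Ob + Exe with a log2 fold change of -1.62 (SE 0.583), which met the call rule, but its Benjamini-Hochberg adjusted p was 0.745. The log2 fold change of the long transcript was 0.54 (SE 0.220) and was not called. The call of the short transcript was lost in 7 of 14 alternative settings, and its log2 fold change lay between -2.41 and -0.84 when 1 library was left out. StringTie shares reads between transcripts that overlap almost wholly, so these shares are estimates.

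**Figure D4:**
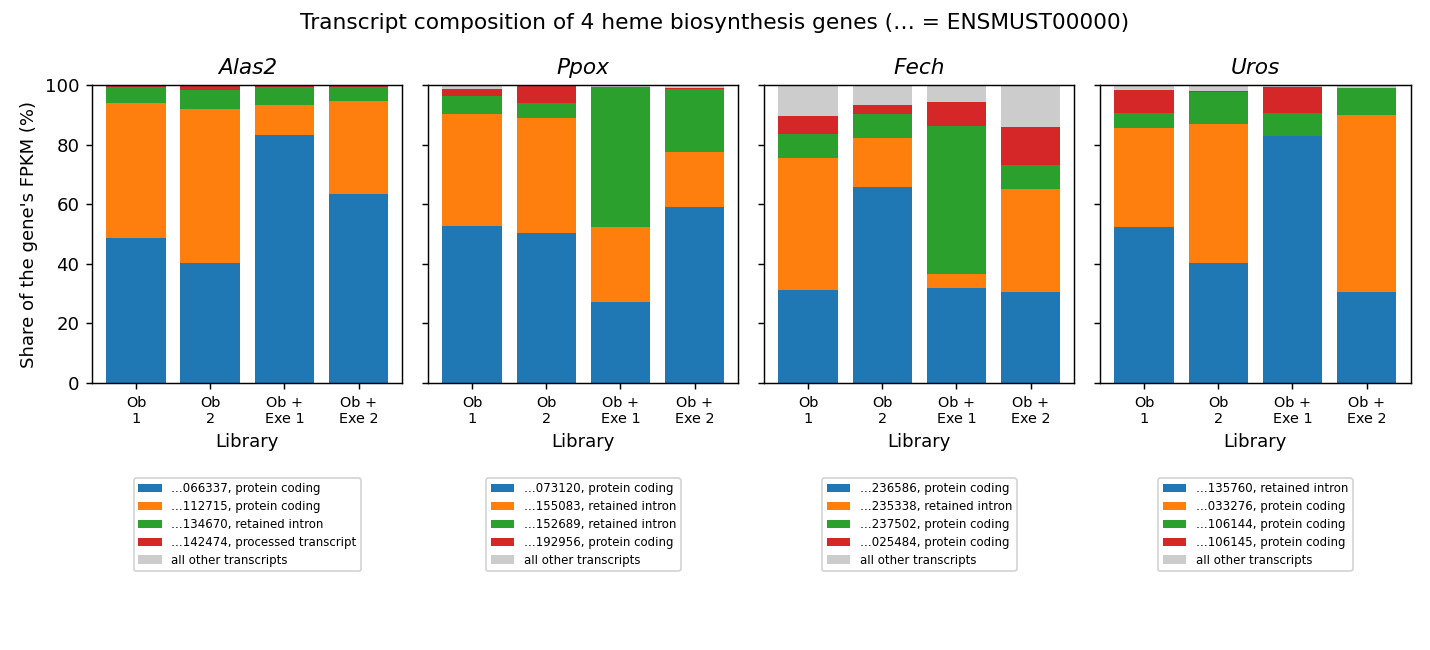
Share of each gene's FPKM (%) held by its 4 most abundant transcripts and by all others, for Alas2, Ppox, Fech and Uros in each library, with transcript identifiers shortened and annotated classes in the keys. The long Alas2 transcript goes from 48.8% and 40.4% in Ob to 83.3% and 63.6% in Ob + Exe, whereas the Uros and Fech compositions differ as much between replicates as between groups.

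Across the members the transcripts did not stand out by separation of the groups. Of their 64 annotated transcripts 52 were tested, 6 were called (2 higher and 4 lower in Ob + Exe) and 18 did not overlap between the groups. These are 11.5% and 34.6% of those tested, beside 6.51% called and 33.4% not overlapping among all transcripts tested. Among all transcripts, 0 passed an adjusted p of 0.05 in this limma fit, and 6.67% had an unadjusted p under 0.05.

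A Ppox transcript with a retained intron (ENSMUST00000152689.7) had the greatest rise among the called ones. It held 5.87% and 5.03% of the gene's FPKM in Ob, against 47.2% and 21.4% in Ob + Exe, so the groups were apart but the exercised libraries differed widely. Its log2 fold change was 2.60 (SE 0.566) and its Benjamini-Hochberg adjusted p from limma was 0.511, and the call was lost in 2 of 14 alternatives, those that left out an Ob library. The coding Ppox transcript (ENSMUST00000073120.10) held 52.7% and 50.4% in Ob, against 27.1% and 59.0% in Ob + Exe and was not called (log2 fold change -0.30). The other abundant retained-intron transcript of Ppox (ENSMUST00000155083.7), at 37.7% and 38.6% in Ob, against 25.1% and 18.4% in Ob + Exe, was not called either (log2 fold change -0.76). The remaining called transcripts held at most a small share of their gene. They were a second coding transcript of Ppox (2.09% of the gene on average, lower), a processed transcript of Fech (2.05%, higher), a Fech transcript subject to nonsense-mediated decay (0.926%, lower) and a processed transcript of Slc25a38 (0.249%, lower). The Fech decay transcript (ENSMUST00000235947.1) was at 2.90 and 2.30 FPKM in Ob, against 0 and 0 FPKM in Ob + Exe. Its log2 fold change of -4.74 (SE 0.707) depends on the added 0.1, and its Benjamini-Hochberg adjusted p from limma was 0.319. With 1 library left out the log2 fold change lay between -4.91 and -4.58.

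For other members the composition differed as much between replicates as between groups. The most abundant Uros transcript was one with a retained intron (ENSMUST00000135760.7), at 52.3% and 40.3% in Ob, against 83.0% and 30.6% in Ob + Exe. The main coding transcript of Uros (ENSMUST00000033276.10) was listed at 0 in Ob + Exe replicate 1 and held 59.5% in Ob + Exe replicate 2, beside 33.4% and 46.6% in Ob. The Fech transcript with the highest mean over the 4 libraries (ENSMUST00000236586.1) held 65.9% in Ob replicate 2 and 30.5% to 31.8% in the other libraries, in each of which another transcript was higher. In Alad, the coding transcript ENSMUST00000030090.3 held 35.1% to 80.4% and a processed transcript (ENSMUST00000137448.1) 19.6% to 55.0%, with no order by group. In Urod, the coding transcript ENSMUST00000030446.14 held 49.4% to 73.8% and a retained-intron transcript (ENSMUST00000150370.1) 10.1% to 34.8%. Cpox and Slc25a38 were more even, with a single coding transcript at 89.2% to 93.8% (ENSMUST00000060077.6) and at 76.9% to 87.8% (ENSMUST00000035106.11), and Abcb10 has 1 annotated transcript. The transcripts with the highest mean FPKM in these 7 genes were not called.

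Since the libraries were unstranded, the protocol gave no strand to tell reads apart where 5 members overlap genes on the opposite strand. All 23264 bases of Alas2 lie within the annotated span of Apex2, at 4.37 to 6.87 FPKM, which is low beside Alas2. B4galt3, at 18.1 FPKM or more, overlaps Ppox over 907 bases, and Bccip, at 22.4 to 32.6 FPKM, overlaps Uros over 740 bases. The genes that overlap Cpox and Abcb10 stood at 0 to 2.54 FPKM. No gene overlaps Alad, Urod, Fech or Slc25a38 in the annotation.

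The region just upstream of the start was searched for the letters bound by GATA1, the erythroid transcription factor, since many red cell genes carry them. RefSeq windows (GRCm38.p6) were found for 8 of 9 members, 10 windows in all, and none was found for Fech. The letters were GATAA and GATAG, each after A or T and read on either strand, and they occurred in the 250 upstream bases of Alas2 (1 match), of Cpox (2 matches) and of the second start of Uros (2 matches), thus in 3 of 10 windows, beside 26.5% of all 32851 windows. A match of letters is not a bound site. The upstream bases of Alas2 and Cpox are shown because they hold such a match, in capitals, with both strands read and the pair of matches in Cpox sharing 1 base (chrX:150547167-150547374 and chr16:58669958-58670207, both plus strand). For Alas2 only the 208 bases of the searched window that precede the start of the GENCODE gene are printed.
Alas2 upstream: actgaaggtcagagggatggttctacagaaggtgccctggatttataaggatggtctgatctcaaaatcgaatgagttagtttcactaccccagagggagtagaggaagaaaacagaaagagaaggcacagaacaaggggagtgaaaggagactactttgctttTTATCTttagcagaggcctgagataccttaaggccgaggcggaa
Cpox upstream: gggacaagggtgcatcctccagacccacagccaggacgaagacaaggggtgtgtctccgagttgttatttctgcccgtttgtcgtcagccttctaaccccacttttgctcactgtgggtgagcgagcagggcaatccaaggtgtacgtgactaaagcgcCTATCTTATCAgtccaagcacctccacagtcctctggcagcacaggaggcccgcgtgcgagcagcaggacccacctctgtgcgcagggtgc
CACCC, the core letters of sites for the erythroid factor KLF1, occurred on either strand in 52% of all windows and in those of Alas2 (3 matches), Cpox (4 matches), Slc25a38, Abcb10 and the second start of Alad (1 match each). The matches of Alas2 lie in the part of its window that is not printed.

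Other genes of heme and iron handling gave no call in the reported fit either. Of 33 genes listed for mitochondrial transport, iron uptake, iron-sulfur clusters, control by heme or iron and heme breakdown, 32 were tested, 17 were higher and 15 lower in Ob + Exe, and 0 were called by limma, with 1 at an unadjusted p under 0.05. Their median log2 fold change was 0.011, and 9 of 32 did not overlap between the groups (3 higher and 6 lower), beside 32.6% of all genes. Hmox1, heme oxygenase 1, which opens the heme ring, was one of those, at 118 and 136 FPKM in Ob, against 187 and 153 FPKM in Ob + Exe (log2 fold change 0.42, SE 0.219). Alas1 was also higher in both exercised libraries, at 54.0 and 29.8 FPKM in Ob, against 55.0 and 59.7 FPKM in Ob + Exe (log2 fold change 0.51, SE 0.316), although the closest values of the groups differed by about 1 FPKM. Its log2 fold change was 0.085 without Ob replicate 2 and 0.94 without Ob replicate 1. Eif2ak1, the heme-regulated kinase that slows translation when heme is short, was lower in both, at 53.8 and 54.0 FPKM in Ob, against 43.8 and 47.3 FPKM in Ob + Exe (log2 fold change -0.24, SE 0.191).

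The mitochondrial iron importer Slc25a37 was at 353 and 474 FPKM in Ob, against 434 and 514 FPKM in Ob + Exe (log2 fold change 0.21), and the transferrin receptor Tfrc at 218 and 261 FPKM in Ob, against 200 and 318 FPKM in Ob + Exe (log2 fold change 0.082). Tmem14c, which carries protoporphyrinogen into the mitochondrion, repeated the wide gap seen for Cpox, at 222 and 225 FPKM in Ob, against 132 and 261 FPKM in Ob + Exe (log2 fold change -0.27). Steap3, the ferrireductase of the transferrin cycle, had the lowest unadjusted p of the list and is named after its values were seen. It stood at 19.0 and 15.7 FPKM in Ob, against 6.31 and 11.7 FPKM in Ob + Exe, and its log2 fold change of -0.999 (SE 0.350) lay just inside the fold threshold, with a Benjamini-Hochberg adjusted p of 0.959 from limma.

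Erythroid genes outside the pathway gave no call either. Of 23 red cell genes tested, 0 were called by limma, 0 were by voom and 0 had an unadjusted p under 0.05. Their median log2 fold change was -0.12, and 8 of 23 did not overlap between the groups (3 higher and 5 lower), beside 32.6% of all genes. This median was 0.037 without Ob + Exe replicate 1, 0.021 without Ob replicate 2 and -0.26 without Ob + Exe replicate 2, so its sign rests on single libraries. Hba-a1 was at 23560 and 24040 FPKM in Ob, against 22650 and 20150 FPKM in Ob + Exe. Hbb-bs, a beta globin gene, had the lowest and the highest value in the exercised libraries, at 17520 and 43730 FPKM, beside 32980 and 27560 FPKM in Ob. Slc4a1, which encodes the anion exchanger of the red cell membrane, showed the same spread, with 264 and 414 FPKM in Ob + Exe against 398 and 359 FPKM in Ob. Klf1, an erythroid transcription factor, also had its extremes in Ob + Exe, at 72.7 and 136 FPKM, beside 110 and 115 FPKM in Ob, while Gata1 was at 70.2 and 87.5 FPKM in Ob, against 98.7 and 77.6 FPKM in Ob + Exe. The median log2 FPKM of the members exceeded that of the erythroid list by -0.0087 and 0.14 in Ob and by 0.43 and 0.32 in Ob + Exe. The groups were apart in this difference, but with 2 libraries against 2 an exact two-sided permutation test cannot give a p below 0.333, and the difference was not tested.

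**Figure D5:**
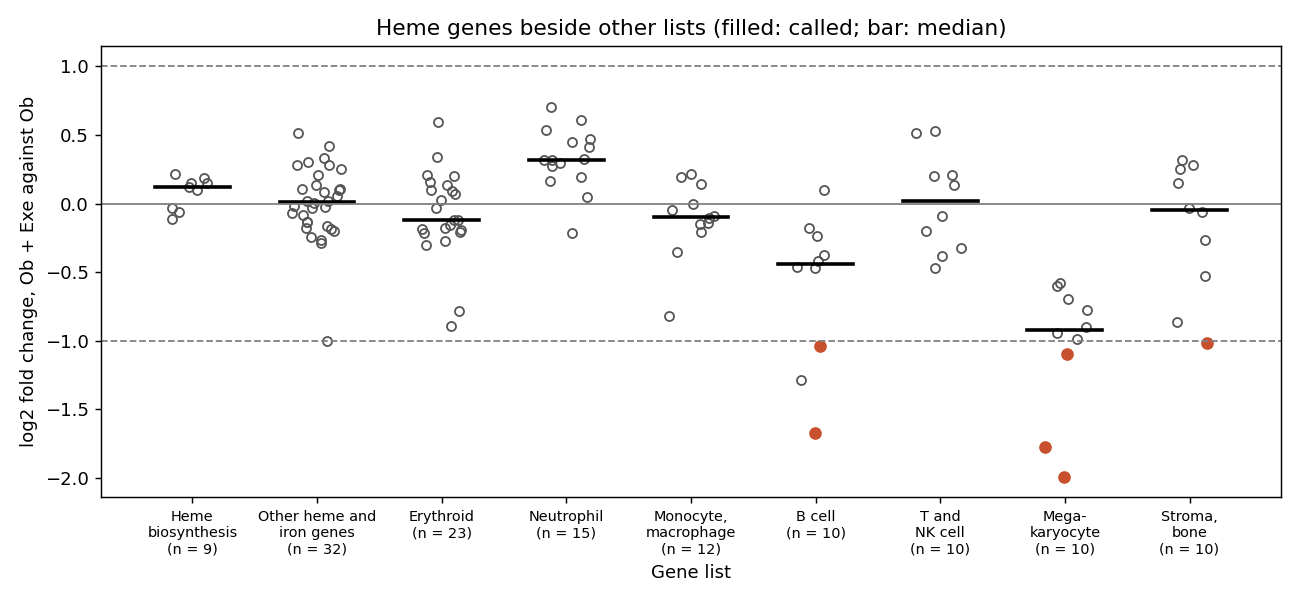
Log2 fold change of Ob + Exe against Ob for the 9 heme biosynthesis genes, for 32 other heme and iron genes and for marker lists of marrow cell types, 1 point a gene, filled where called, with a bar at the list median and dashed lines at 1 and -1. Heme and erythroid genes lie around 0 (medians 0.12, 0.011 and -0.12), and the filled points are in the B cell, megakaryocyte and stroma lists.

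Marker lists of other marrow cells gave 6 calls, all of them lower in Ob + Exe. Among all genes tested 3.74% were called, 1.0% higher and 2.74% lower, so calls leaned to lower values in general. The Ob libraries held 53038186 and 50423542 read equivalents and 23309 and 20663 genes above 0 FPKM. Those of Ob + Exe held fewer of both, at 44310505 and 46668748 read equivalents and 17752 and 19291 genes. The part of this difference in the calls was not tested. All 10 megakaryocyte and platelet markers were lower in Ob + Exe, with 3 called and a median log2 fold change of -0.92, and their summed level was 363 to 493 FPKM in Ob, against 149 to 393 FPKM in Ob + Exe. Of 10 B cell markers 9 were lower and 2 were called (summed level 215 to 223 FPKM in Ob, 136 to 172 FPKM in Ob + Exe). Of 15 neutrophil markers 14 were higher with 0 called by limma, a median of 0.32 and 0 at an unadjusted p under 0.05 (summed level 28540 to 50040 FPKM in Ob, 37320 to 66970 FPKM in Ob + Exe). Among 12 monocyte and macrophage and 10 T and NK cell markers 0 were called and 0 had an unadjusted p under 0.05, and of 10 stroma and bone markers 1 was called, Col1a1, lower in Ob + Exe. Benjamini-Hochberg adjusted p-values of the 6 called markers were 0.941 to 0.959 (limma). Over 18 settings, the reported one included, Col1a1 was called in 9, Gp5 in 12 and Igll1, the most often called, in 17. The summed erythroid level was 75100 FPKM in both Ob libraries and 56210 and 84530 FPKM in Ob + Exe. This sum rests mostly on the globin genes. Hbb-bs alone was at 32980 and 27560 FPKM in Ob, against 17520 and 43730 FPKM in Ob + Exe. The neutrophil sum likewise rests mostly on S100a8 and S100a9, so neither sum stands for its whole list. The part of these values in the members' values was not tested.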

How the data were processed

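Bone marrow of 2 Ob and 2 Ob + Exe libraries was analysed. Per the labels and the study's methods, the authors removed adapters with fastp, aligned paired reads of 150 bases to GRCm38 with HISAT2 and quantified them with StringTie on a GENCODE annotation. Tool versions are not given in the sources used here. The deposited tables hold FPKM and read coverage for 142604 transcripts, so the values are normalised for length and depth and are not read counts. DESeq2, used by the authors on counts, was therefore replaced by limma 3.58.1 (R 4.3.3), with the study's thresholds kept.

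FPKM was summed per gene, scaled by median-of-ratios factors (0.94 to 1.04) and tested as log2(FPKM + 0.1) for the 18596 genes whose mean FPKM was 0.1 or more, with an intensity trend and no covariate. Fold changes on this scale understate those of low genes. Read equivalents are coverage times length over 150. Data for this comparison were simulated with 18596 genes, 200 of them changed by 2 on the log2 scale. At a replicate coefficient of variation of 0.3, 94% of changed genes and 2.57% of unchanged genes were called. At a coefficient of 0.1 these shares were 94% and 0.652%. The planted change is larger than the fold threshold of 1, so these shares do not describe differences as small as those of the members. Transcript classes, GC content and transcript sequences came from GENCODE vM21, in which 140493 transcripts had the same identifier and length.

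All 9 members were named. From the other heme genes and the erythroid genes every called gene and 6 preset genes each were to be named, of which 1 erythroid gene is not reported here. From transcripts, each member's most abundant one and any second one with at least 10% in every library were named. Col1a1, Cxcl12, S100a8, S100a9 and Steap3, the short Alas2 transcript, ENSMUST00000152689.7 of Ppox, the main coding transcript of Uros and the minor called transcripts were named after their values were seen. The members and lists were chosen with earlier results of these data known. The transcript-level fit, the GC correction, the sum over coding transcripts and the crossed pairing were added after seeing the data. One erythroid gene of the list was not found under its symbol.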

Additional observations from a re-analysis of the deposited data

How the results depend on the processing

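With 2 libraries a group, differences inside the 95% interval given for each gene remain possible. Isoform shares depend on how StringTie divided shared reads. Across 17 alternatives 0 of 9 members were called. Of the 153 member values 130 kept their sign and 23 changed it, 11 of these with all libraries kept, and the lowest adjusted p of a member was 0.375 (limma, Benjamini-Hochberg). The cause of the changes below was not tested, except that the settings with 1 library left out rest on fewer libraries and take the lone library to vary like the other group.

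Over all genes 696 were called, and 270 with a minimum mean FPKM of 1, 224 with a pseudocount of 1, 459 with limma voom on read equivalents, 1060 without an intensity trend and 428 with protein-coding transcripts only (17 at an adjusted p under 0.05, limma). Leaving out 1 library gave 744 to 1920 calls, with 1260 without Ob + Exe replicate 1 and 1920 without Ob + Exe replicate 2. Of the other heme genes 1, Steap3, was called with a pseudocount of 0.01 (1), with no further scaling (1), with quantile normalization (1) and with the most abundant transcript only (1), and 0 to 1 when a library was left out (1 without Ob + Exe replicate 2). Its log2 fold change was -0.25 with voom, -5.06 with the most abundant transcript only, and -1.44 to -0.56 with 1 library left out. Of the erythroid genes 0 to 1 were called when a library was left out (1, Sptb, without Ob + Exe replicate 2).

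The median log2 fold change of the members was -0.094 with the most abundant transcript only and -0.096 with protein-coding transcripts only, thus of the opposite sign, and -0.007 to 0.17 with 1 library left out. That of the other heme genes was -0.13 to 0.086 with 1 library left out, the lowest without Ob + Exe replicate 2. That of the erythroid genes was -0.26 to 0.037 with 1 library left out and 0.033 with GC correction. With the most abundant transcript only, the log2 fold change changed sign for Alas2 (0.55), Urod (-0.19), Ppox (-0.29), Fech (-0.43), Slc25a37 (-0.16) and Tfrc (-0.012). With protein-coding transcripts only it did so for Uros (-0.48), Urod (-0.10) and Ppox (-0.35), with voom for Urod (-0.01) and Fech (-0.031), with GC correction for Alad (0.045) and Cpox (0.01), and with no further scaling for Tfrc (-0.006).

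With 1 library left out, the log2 fold change lay between -0.20 and -0.026 for Alas2, 0.026 and 0.35 for Abcb10, -0.29 and 0.17 for Alad, -0.004 and 0.31 for Uros, -0.049 and 0.24 for Urod, -0.69 and 0.62 for Cpox, -0.27 and 0.52 for Ppox, -0.06 and 0.37 for Fech, and -0.12 and 0.54 for Slc25a38. It lay between 0.085 and 0.94 for Alas1, -0.006 and 0.42 for Slc25a37, -0.25 and 0.42 for Tfrc, -0.76 and 0.22 for Tmem14c, -0.78 and 0.54 for Hbb-bs, -0.52 and 0.13 for Slc4a1, -0.015 and 0.33 for Gata1, and -0.62 and 0.27 for Klf1.

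No source pairs the mice by replicate number. Replicate differences of the groups correlated at -0.106 over all genes tested and at -0.235 over 12409 genes with a mean of 1 FPKM or more, and the fit with a replicate block called 740 genes, with 18 at an adjusted p under 0.05 (limma, Benjamini-Hochberg), 0 of them members. The crossed pairing, added after seeing the data, called 803 genes, with 11 at an adjusted p under 0.05 (limma, Benjamini-Hochberg).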
